A study of Homo sapiens with 6 samples.

Results

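Most of the 37 genes described here encode enzymes that bring pyruvate into the mitochondrion's TCA cycle, turn the cycle or feed it from the side. The list also holds cytosolic forms such as IDH1, and GLO1, HAGH and ACYP1, which serve methylglyoxal or acyl phosphates outside the cycle. The 37 genes were chosen by name, with no measured value in the rule. All 37 were found among the 58735 genes of the table, and all 37 passed the filter on low values, which left 13150 genes to be tested. Expression was measured by RNA-seq in PC9-BrM3 cells, a derivative of the lung adenocarcinoma line PC9 that was selected in mice for growth in the brain. In 3 libraries (BrM3-shAKR1B10) the aldo-keto reductase AKR1B10 was silenced by a lentiviral shRNA, and 3 libraries (BrM3-shNC) carried the negative control shRNA in the same line. The methods describe routine culture and name no drug for the cells that were sequenced. By the legends of the study the knockdown came from 1 shRNA vector, so that an effect of that vector and an effect of the loss of AKR1B10 cannot be told apart, and no source used here says that the 3 libraries of a group came from separate cultures.

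Pyruvate enters the cycle through the pyruvate dehydrogenase complex, which makes acetyl-CoA, or through pyruvate carboxylase, which makes oxaloacetate. Citrate synthase joins both products, and the cycle then oxidises citrate by way of 2-oxoglutarate, succinate, fumarate and malate back to oxaloacetate. Glutamate, aspartate and acetate enter at side doors, malic enzymes turn malate back into pyruvate, and the glyoxalases GLO1 and HAGH turn methylglyoxal, a by-product of glycolysis, into lactate. The comparison bears on the link between AKR1B10 and the way these cells use pyruvate.

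The targeted gene checked the labels. AKR1B10 stood at 108, 107 and 110 FPKM (fragments per 1000 bases of exon, scaled by library size) in the BrM3-shAKR1B10 libraries and at 799, 775 and 772 FPKM in the BrM3-shNC libraries. Its log2 fold change was -2.85 (SE 0.03, limma adjusted p = 1.59e-07). Each library held between 16964504 and 18709028 reads on genes, and the smallest level that 3 reads allow on 1000 bases was 0.163 to 0.177 FPKM. Of 5 epithelial markers, all were present, with summed levels of 2708 to 2771 FPKM in BrM3-shAKR1B10 and 2483 to 2783 in BrM3-shNC. The 3 keratins made up most of that sum and overlapped between the groups, whereas EPCAM stood at 87.0 to 95.1 FPKM against 103 to 113 and CDH1 at 51.3 to 52.4 FPKM against 44.8 to 48.0. The 3 lung lineage markers NKX2-1, NAPSA and SFTPB were near 0, summing to at most 0.927 FPKM, although the labels name a lung cancer line. Leukocyte (2 genes), endothelial (2 genes) and astrocyte and neuron (4 genes) markers summed to at most 0.265, 0.618 and 0.185 FPKM. Of 3 fibroblast markers, COL1A2 and DCN were at 0 in all libraries, and COL1A1 stood at 1.15 to 1.33 FPKM in BrM3-shAKR1B10 and 1.96 to 2.02 in BrM3-shNC.

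A gene was called when limma's Benjamini-Hochberg adjusted p was under 0.05 and the log2 fold change, taken on log2(FPKM + 0.1), was beyond 0.5 in size. By this rule 5 members were lower after AKR1B10 silencing, ACSS1, ACAT1, GLO1, ACYP1 and ME2, and 1 was higher, IDH1. That is 13.5% of the members lower and 2.7% higher, beside 7.45% and 5.83% of all genes tested. At the adjusted p alone, 15 members (40.5%) were lower and 3 (8.11%) were higher, beside 23.1% and 19.4% of all genes. The 3 BrM3-shAKR1B10 values lay below all 3 BrM3-shNC values for 19 members (51.4%) and above them for 4 (10.8%), beside 29.2% and 25.5% of all genes. The median log2 fold change of the members was -0.10, with 29 below 0 and 8 above, against -0.01 for all genes tested. Rescaling to TPM (values that sum to the same total in each library) gave a median of -0.06 with 24 members below 0, against a median of 0.02 for all genes tested. The median size of the change, without sign, was 0.16 in the members and 0.20 in all genes. In bulk RNA, fewer cells that express a gene and less RNA of that gene per cell cannot be told apart.

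Of the 31 members that were not called, 30 had a 95% interval of the log2 fold change that lay inside -0.5 to 0.5. The exception was FH, whose interval ran from -0.505 to -0.346. The mean level of the members ran from 2.35 FPKM for ME2 to 107 FPKM for MDH2, with a median of 18.1 against 6.04 over all genes tested. Each member had between 253 and 7662 reads in a library. The median coefficient of variation between libraries of a group was 3.59% in BrM3-shAKR1B10 and 4.04% in BrM3-shNC.

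**Figure D1:**
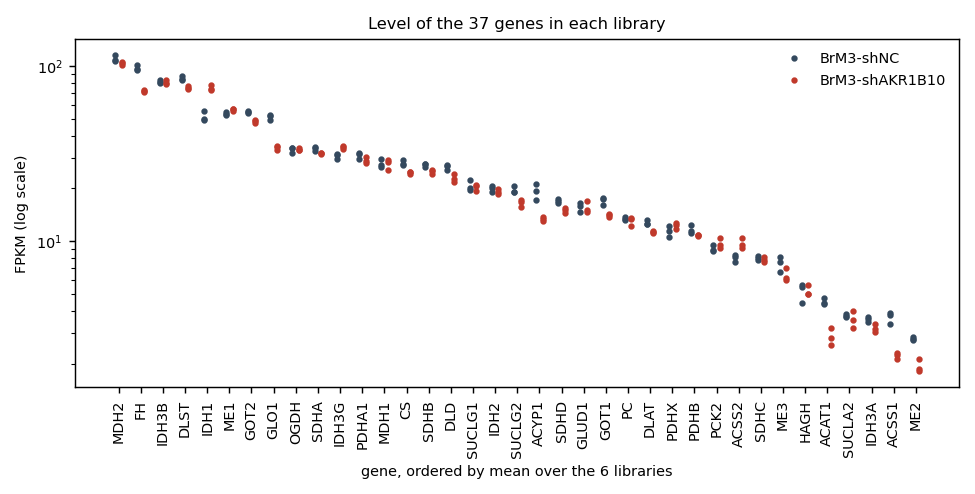
Level of each of the 37 genes in each library, as FPKM on a log axis, with genes ordered by their mean and 1 point per library (3 BrM3-shNC, 3 BrM3-shAKR1B10). MDH2 at 107 FPKM and ME2 at 2.35 FPKM mark the ends, and the points of the groups part most for ACSS1, ACAT1, GLO1, ACYP1, ME2 and IDH1.

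**Figure D2:**
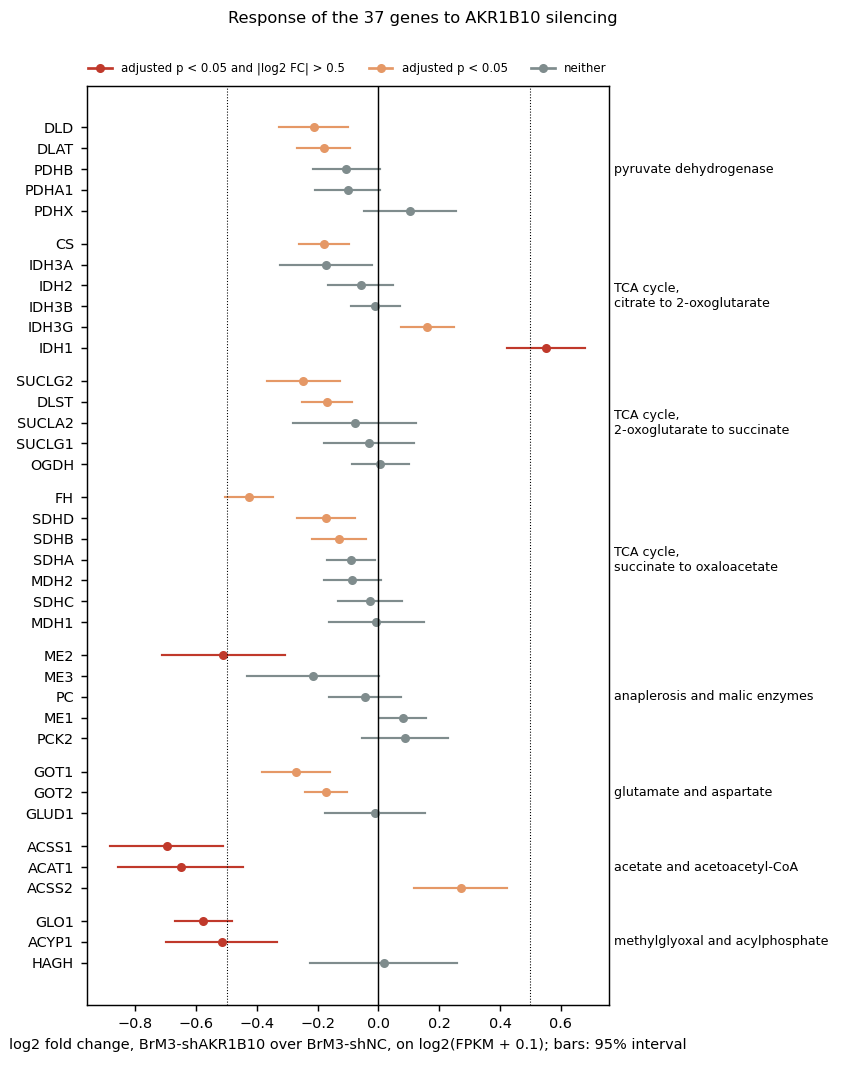
The log2 fold change of each gene (BrM3-shAKR1B10 over BrM3-shNC, points) with its 95% interval (bars), grouped by step of the pathway, with dotted lines at -0.5 and 0.5. Most intervals lie between the dotted lines, and the 6 called genes lie beyond them by their point estimates.

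The starts of the genes with the largest called changes are shown so that the letters upstream of them can be read beside the values. Each run holds the 250 bases before a transcription start in RefSeq (GRCh38.p14), 5′ to 3′ on the strand of the gene, for ACSS1 (chr20:25058140-25058389, minus strand), ACAT1 (chr11:108121317-108121566, plus strand), GLO1 (chr6:38703146-38703395, minus strand), IDH1 (chr2:208254459-208254708, minus strand) and ACYP1 (chr14:75064025-75064274, minus strand). SDHD (chr11:112086623-112086872, plus strand), a subunit gene whose change was small, is added for contrast and was chosen after its values were seen. ACSS1, ACAT1, IDH1 and ACYP1 have 2 windows each in the table. The first listed is printed for ACSS1, ACAT1 and IDH1, and for ACYP1 the second, since it holds a match. Capitals mark matches on either strand to the letters searched.
ACSS1: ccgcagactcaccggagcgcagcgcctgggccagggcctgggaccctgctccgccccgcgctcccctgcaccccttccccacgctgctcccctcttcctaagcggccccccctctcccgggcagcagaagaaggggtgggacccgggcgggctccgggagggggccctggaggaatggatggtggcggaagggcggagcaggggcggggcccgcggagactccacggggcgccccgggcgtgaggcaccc
ACAT1: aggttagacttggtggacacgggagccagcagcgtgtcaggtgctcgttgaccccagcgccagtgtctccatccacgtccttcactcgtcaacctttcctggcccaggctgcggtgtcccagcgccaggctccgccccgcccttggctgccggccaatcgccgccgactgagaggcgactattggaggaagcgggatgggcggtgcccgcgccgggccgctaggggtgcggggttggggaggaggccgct
GLO1: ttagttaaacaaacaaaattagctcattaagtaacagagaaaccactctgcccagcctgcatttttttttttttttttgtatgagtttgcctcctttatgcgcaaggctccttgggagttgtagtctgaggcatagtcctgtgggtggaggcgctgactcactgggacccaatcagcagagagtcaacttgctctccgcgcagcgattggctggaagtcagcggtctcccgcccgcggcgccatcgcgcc
IDH1: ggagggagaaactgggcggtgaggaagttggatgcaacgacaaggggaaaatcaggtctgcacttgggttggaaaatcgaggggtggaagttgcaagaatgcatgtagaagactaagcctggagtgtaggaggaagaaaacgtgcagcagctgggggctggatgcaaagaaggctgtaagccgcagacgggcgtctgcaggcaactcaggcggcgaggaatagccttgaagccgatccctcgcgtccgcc
ACYP1: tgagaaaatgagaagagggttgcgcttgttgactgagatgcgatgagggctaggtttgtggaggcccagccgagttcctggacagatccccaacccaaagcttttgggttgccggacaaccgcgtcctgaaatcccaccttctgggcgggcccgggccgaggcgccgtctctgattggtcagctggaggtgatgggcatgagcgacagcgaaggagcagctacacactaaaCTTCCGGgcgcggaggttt
SDHD: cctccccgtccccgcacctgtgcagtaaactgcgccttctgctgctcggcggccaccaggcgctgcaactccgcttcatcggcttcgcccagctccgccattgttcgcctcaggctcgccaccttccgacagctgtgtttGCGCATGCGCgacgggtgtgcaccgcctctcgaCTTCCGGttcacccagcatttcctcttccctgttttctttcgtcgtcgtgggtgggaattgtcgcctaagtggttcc

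Motifs of factors known for nuclear genes of mitochondrial proteins were searched in the RefSeq windows, 300 bases each and reaching 50 bases past the start, which were present for 35 of the 37 members. The NRF1 motif GCATGCGC lay in a window of 3 members (DLD, SDHB and SDHD), beside 3.05% of all 35116 windows. The ETS motif CCGGAAG lay in windows of 9 members (ACSS2, ACYP1, DLST, IDH3B, IDH3G, MDH2, ME2, SDHB and SDHD), beside 10.3% of all windows. The ERR motif TCAAGGTCA was found in SDHD only among the members (0.353% of all windows), and the E-box CACGTG in HAGH, ME3 and PDHB (7.26%). Some members have several windows, so a count of members and a share of windows are not the same quantity. Among the 6 called members, an ETS match stood in ACYP1 and ME2, and none of the 4 motifs was in the windows of ACSS1, ACAT1, GLO1 or IDH1. In SDHD the matches to NRF1 on the plus and minus strands overlap in GCGCATGCGC. The G and C content of the printed runs was 77.2% in ACSS1, 69.2% in ACAT1, 51.2% in GLO1, 56.8% in IDH1, 59.2% in ACYP1 and 62.8% in SDHD. In the windows not printed it was 59.2% for ACSS1, 73.6% for ACAT1, 66.4% for IDH1 and 69.6% for ACYP1, over the same 250 bases before the start.

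In the pyruvate dehydrogenase complex, none of 5 members was called. DLAT, the acetyltransferase core (E2), stood at 11.4, 11.2 and 11.2 FPKM in BrM3-shAKR1B10 and at 12.6, 13.2 and 12.5 FPKM in BrM3-shNC, and the groups did not overlap. Its log2 fold change was -0.18 (SE 0.04, adjusted p = 0.00798). PDHX, which tethers E3 to that core, stood at 11.7, 12.7 and 12.4 FPKM against 12.3, 11.4 and 10.6, with overlapping groups and a log2 fold change of 0.10 (adjusted p = 0.233). DLD, the E3 dehydrogenase that the 2-oxoglutarate complex shares, was lower at the adjusted p alone (log2 fold change -0.21, adjusted p = 0.0122). LAMB1, on the other strand, overlaps DLD over 7932 bases and was higher (0.32, adjusted p = 0.000663). The E1 subunits PDHA1 and PDHB had log2 fold changes of -0.10 and -0.11, with adjusted p of 0.114 and 0.111. Summed over the 5 genes, the level was 84.3 to 88.8 FPKM in BrM3-shAKR1B10 and 90.9 to 96.4 in BrM3-shNC, or 92.2% of the control mean.

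From citrate to 2-oxoglutarate, only IDH1 of the 6 members was called. IDH1, the NADP-dependent isocitrate dehydrogenase of the cytosol and peroxisome, lies on chromosome 2 from 208236227 to 208266074 on the minus strand (ENSG00000138413, GENCODE 29). It stood at 73.1, 78.2 and 74.1 FPKM in BrM3-shAKR1B10 (75.1 ± 2.70, SD, n = 3) and at 55.1, 49.1 and 49.6 FPKM in BrM3-shNC (51.3 ± 3.32, SD, n = 3). All 3 knockdown libraries were above all 3 controls, and the log2 fold change was 0.55 (SE 0.05, adjusted p = 0.000395). Its mitochondrial counterpart IDH2 stood at 19.1, 18.5 and 19.8 FPKM against 19.0, 20.2 and 20.6, with overlapping groups and a log2 fold change of -0.06 (adjusted p = 0.337). IDH1 was thus the more abundant isozyme per exon length in every library, and the only member called higher.

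The NAD-dependent enzyme of the cycle is built from IDH3A, its catalytic subunit, with IDH3B and IDH3G. IDH3A stood at 3.36, 3.02 and 3.14 FPKM in BrM3-shAKR1B10 and at 3.61, 3.68 and 3.46 FPKM in BrM3-shNC. These groups did not overlap, but the test was not passed (log2 fold change -0.17, adjusted p = 0.0685). IDH3B stood at 83.2, 78.6 and 79.7 FPKM against 79.8, 82.8 and 80.7, with overlapping groups and a log2 fold change of -0.01. IDH3G was higher at the adjusted p alone, with a log2 fold change of 0.16 (adjusted p = 0.0128). It shares 1008 bases with SSR4, a gene on the other strand that was also higher (log2 fold change 0.38, adjusted p = 0.000814), and whether counting used the strand is not given in the sources used here. CS, which condenses acetyl-CoA with oxaloacetate, was lower at the adjusted p alone (log2 fold change -0.18, adjusted p = 0.00685). The 6 genes together reached 235.4 to 237.9 FPKM in BrM3-shAKR1B10 and 212.5 to 215.9 in BrM3-shNC, 110.4% of the control mean, and IDH1 accounted for the sign of that difference.

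From 2-oxoglutarate to succinate, none of 5 members was called. SUCLG2, the GTP-forming subunit of succinyl-CoA ligase, showed a log2 fold change of -0.25 (adjusted p = 0.00819), and DLST, the core of the 2-oxoglutarate dehydrogenase complex, one of -0.17 (adjusted p = 0.00798). Both were lower at the adjusted p alone. OGDH, the E1 enzyme of that complex, showed a log2 fold change of 0.01, the shared ligase subunit SUCLG1 one of -0.03 and the ATP-forming SUCLA2 one of -0.08, with adjusted p of 0.912, 0.711 and 0.494. The sum over the 5 genes was 147.9 to 151.2 FPKM against 160.6 to 165.1, or 91.9% of the control mean.

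From succinate to oxaloacetate, all 7 members had a log2 fold change below 0, although SDHC and MDH1 turned above 0 with TPM scaling. The clearest was FH, which hydrates fumarate to malate. FH stood at 73.3, 72.4 and 71.6 FPKM in BrM3-shAKR1B10 (72.4 ± 0.883, SD, n = 3) and at 101, 95.3 and 95.9 FPKM in BrM3-shNC (97.3 ± 3.07, SD, n = 3). The groups were well apart, at 74.4% of the control mean, while the log2 fold change of -0.43 (SE 0.03, adjusted p = 0.000159) did not reach the size needed for a call. By mean FPKM, which divides by the length of all exons, FH ranked 2 among the members, and per length of the principal transcript it ranked 6.

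Succinate dehydrogenase, which is also complex II of the respiratory chain, has 4 subunits among the members. SDHD, a membrane anchor, was lower at the adjusted p alone (log2 fold change -0.17, adjusted p = 0.0132), as was the iron-sulfur subunit SDHB (-0.13, adjusted p = 0.0307), whose adjusted p rose to between 0.0556 and 0.198 in 8 of 15 alternative settings. Those 8 included leaving out BrM3-shAKR1B10 replicate 1 or 3 or BrM3-shNC replicate 1 or 3, with adjusted p of 0.0947, 0.0653, 0.0681 and 0.0867. The flavoprotein SDHA (-0.09, adjusted p = 0.0665) and the anchor SDHC (-0.03, adjusted p = 0.639) were not. SDHA has 3 named pseudogenes that held up to 16.5% as many reads as SDHA itself, so its level is uncertain. Without BrM3-shNC replicate 1 the adjusted p of SDHA was 0.0289.

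MDH2, the mitochondrial malate dehydrogenase, was the most abundant member, at 104, 102 and 106 FPKM in BrM3-shAKR1B10 and 107, 109 and 115 FPKM in BrM3-shNC. Its groups did not overlap, yet the log2 fold change of -0.09 did not pass the test (adjusted p = 0.120). The cytosolic MDH1 had overlapping groups and a log2 fold change of -0.01 (adjusted p = 0.940). Summed over the 7 genes, the level was 282.6 to 284.2 FPKM in BrM3-shAKR1B10 and 316.7 to 325.0 in BrM3-shNC, 88.2% of the control mean.

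Among the 5 genes that fill or drain the cycle at oxaloacetate and malate, 1 was called. ME2, a mitochondrial malic enzyme that uses NAD, lies on chromosome 18 from 50878734 to 50954257 on the plus strand (ENSG00000082212). It stood at 2.11, 1.85 and 1.81 FPKM in BrM3-shAKR1B10 (1.92 ± 0.165, SD, n = 3) and at 2.83, 2.77 and 2.73 FPKM in BrM3-shNC (2.78 ± 0.0503, SD, n = 3). All 3 knockdown values were below all 3 controls, with a log2 fold change of -0.51 (SE 0.08, adjusted p = 0.00364). ME2 is the least abundant member, and its change sits at the edge of the size rule: it shrank to -0.49 without BrM3-shAKR1B10 replicate 2, to -0.47 without BrM3-shAKR1B10 replicate 3 and to -0.50 without BrM3-shNC replicate 1, which ended the call, with adjusted p of 0.0150, 0.0136 and 0.0149.

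ME1, the cytosolic NADP-dependent malic enzyme, stood at 57.1, 56.7 and 55.6 FPKM in BrM3-shAKR1B10 and at 54.9, 53.1 and 52.3 FPKM in BrM3-shNC. Its groups did not overlap, but the log2 fold change of 0.08 did not pass the test (adjusted p = 0.0814), except with TPM scaling (adjusted p = 0.0229), quantile normalization (adjusted p = 0.0217) or without BrM3-shNC replicate 1 (adjusted p = 0.0399). ME3, a mitochondrial NADP-dependent form, showed a log2 fold change of -0.21 (adjusted p = 0.102, and 0.0358 without BrM3-shNC replicate 1). PC, which makes oxaloacetate from pyruvate, and PCK2, the mitochondrial PEP carboxykinase, had log2 fold changes of -0.04 and 0.09 with overlapping groups. PC overlaps LRFN4 on the other strand over 3829 bases, and LRFN4 was lower (log2 fold change -0.58, adjusted p = 0.000931). Summed, the 5 genes stood at 85.9 to 88.3 FPKM against 84.9 to 87.2, and the groups overlapped.

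The transaminases that exchange glutamate and aspartate were both lower at the adjusted p alone. GOT1, the cytosolic form, showed a log2 fold change of -0.27 (adjusted p = 0.00403), and GOT2, the mitochondrial form, one of -0.17 (adjusted p = 0.00380). GLUD1, which turns glutamate into 2-oxoglutarate, showed a log2 fold change of -0.01 (adjusted p = 0.916). Reads of 5 named GLUD1 pseudogenes reached 13.7% of those of the gene, so its level is uncertain. The summed level of the 3 genes was 76.9 to 79.0 FPKM in BrM3-shAKR1B10 and 86.1 to 88.7 in BrM3-shNC.

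The 3 genes of acetate and acetoacetyl-CoA split. ACSS1, the mitochondrial acetyl-CoA synthetase, lies on chromosome 20 from 25006230 to 25058980 on the minus strand (ENSG00000154930). It stood at 2.13, 2.31 and 2.23 FPKM in BrM3-shAKR1B10 (2.22 ± 0.0923, SD, n = 3) and at 3.37, 3.88 and 3.78 FPKM in BrM3-shNC (3.67 ± 0.271, SD, n = 3). The groups were apart, and the log2 fold change of -0.70 (SE 0.08, adjusted p = 0.000684) was the largest of the 37. ACSS2, which makes acetyl-CoA from acetate in the cytosol and nucleus, stood at 9.46, 9.19 and 10.5 FPKM against 7.60, 8.08 and 8.39. It was higher at the adjusted p alone, with no overlap and a log2 fold change of 0.27 (SE 0.06, adjusted p = 0.0150). The antisense neighbour GGT7 shares 715 bases with ACSS2 and was higher by 0.32 on the log2 scale (adjusted p = 0.00631).

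ACAT1, the mitochondrial acetoacetyl-CoA thiolase, lies on chromosome 11 from 108121516 to 108147776 on the plus strand (ENSG00000075239). It stood at 2.56, 3.17 and 2.82 FPKM in BrM3-shAKR1B10 (2.85 ± 0.307, SD, n = 3) and at 4.40, 4.43 and 4.73 FPKM in BrM3-shNC (4.52 ± 0.183, SD, n = 3). The knockdown libraries were all lower, at 63.1% of the control mean, with a log2 fold change of -0.65 (SE 0.09, adjusted p = 0.00141). ACAT1 and ACSS1 rest on 253 to 482 and 327 to 599 reads a library.

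GLO1, the first glyoxalase, which forms lactoylglutathione from methylglyoxal, lies on chromosome 6 from 38675925 to 38703141 on the minus strand (ENSG00000124767). It stood at 34.9, 33.4 and 34.7 FPKM in BrM3-shAKR1B10 (34.3 ± 0.839, SD, n = 3) and at 52.1, 52.7 and 49.0 FPKM in BrM3-shNC (51.3 ± 1.98, SD, n = 3). The groups were far apart for their spread, at 67.0% of the control mean and a log2 fold change of -0.58 (SE 0.04, adjusted p = 9.66e-05). HAGH, the second glyoxalase, which releases lactate from that product, stood at 5.60, 5.02 and 4.98 FPKM against 4.41, 5.60 and 5.47. Its groups overlapped, with a log2 fold change of 0.02 and a 95% interval from -0.22 to 0.26, and BrM3-shNC replicate 1 was the lowest of the 6 libraries.

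ACYP1, an acylphosphatase that hydrolyses acyl phosphates, lies on chromosome 14 from 75053221 to 75069483 on the minus strand (ENSG00000119640). It stood at 13.8, 13.4 and 13.0 FPKM in BrM3-shAKR1B10 (13.4 ± 0.363, SD, n = 3) and at 19.4, 21.2 and 17.2 FPKM in BrM3-shNC (19.3 ± 2.03, SD, n = 3). The lowest control was still above the highest knockdown library, and the log2 fold change was -0.52 (SE 0.08, adjusted p = 0.00230). The call ended without BrM3-shAKR1B10 replicate 3 (-0.50, adjusted p = 0.0114) and without BrM3-shNC replicate 2 (-0.44, adjusted p = 0.00456). ZC2HC1C on the other strand overlaps ACYP1 over 5314 bases, with a log2 fold change of 0.15 (adjusted p = 0.253).

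**Figure D3:**
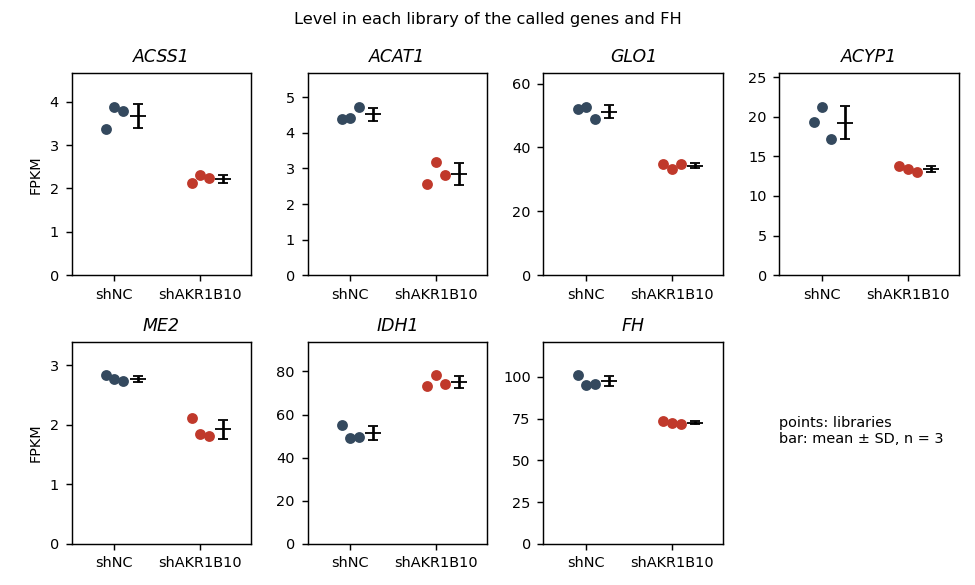
FPKM in each library (points, 3 per group) with the mean and SD (bars) for the 6 called genes and FH, each axis starting at 0. In every panel the BrM3-shAKR1B10 points lie on 1 side of all BrM3-shNC points, above them for IDH1 (73.1 to 78.2 against 49.1 to 55.1 FPKM) and below them for the other genes.

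To see whether partner subunits and isozymes moved together, the ratio of their FPKM was taken within each library for 11 pairs. With 3 libraries against 3, an exact two-sided permutation test can reach no p below 0.1. The ratio did not overlap between the groups for 6 of the 11 pairs, each with an exact permutation p of 0.1 (0.183 after Benjamini-Hochberg adjustment over the 11). For single genes, the groups did not overlap for 29.2% of all genes tested below and 25.5% above. No such share was taken for ratios of other pairs, so the 6 pairs are described only. ACSS1/ACSS2 was 0.225, 0.252 and 0.213 in BrM3-shAKR1B10 and 0.443, 0.480 and 0.450 in BrM3-shNC, 0.502 times the control ratio. ME1/ME2 was 27.1, 30.6 and 30.8 against 19.4, 19.2 and 19.1, or 1.53 times. Relative to the mitochondrial form, the cytosolic form of both pairs stood higher in each knockdown library than in any control, as did that of IDH1/IDH2, at 3.82, 4.22 and 3.74 against 2.90, 2.43 and 2.41, or 1.53 times. This did not hold for MDH1/MDH2 and GOT1/GOT2, which also pair a cytosolic with a mitochondrial form. Their ratios overlapped between the groups, at 1.06 times the control ratio for MDH1/MDH2 and, in the other direction, 0.932 times for GOT1/GOT2.

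GLO1/HAGH was 6.24, 6.64 and 6.97 in BrM3-shAKR1B10 and 11.8, 9.41 and 8.96 in BrM3-shNC, 0.662 times the control ratio. PDHX/DLAT was 1.03, 1.13 and 1.10 against 0.975, 0.866 and 0.843, or 1.22 times. IDH3A/IDH3B was 0.0404, 0.0384 and 0.0394 against 0.0453, 0.0444 and 0.0430, or 0.891 times. The other 5 ratios overlapped between the groups: PDHA1/PDHB, SUCLA2/SUCLG2, SDHA/SDHB, MDH1/MDH2 and GOT1/GOT2, with exact permutation p of 0.8, 0.4, 0.5, 0.6 and 0.2. Several pairs share the library and the direction of a called gene, so the ratios are not independent of the calls above.

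**Figure D4:**
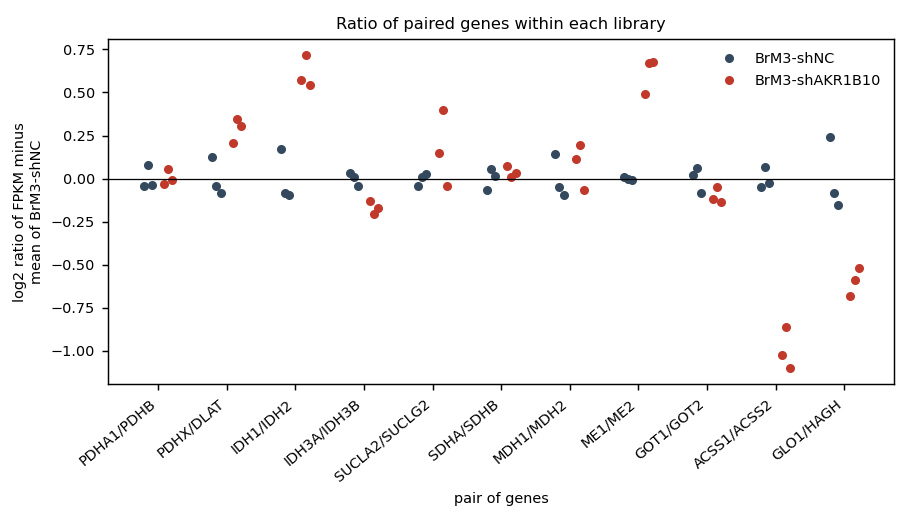
The log2 ratio of FPKM of each pair in each library, less the mean of the 3 BrM3-shNC libraries, with 1 point per library. The 3 knockdown points of ACSS1/ACSS2 lie farthest below 0 and those of IDH1/IDH2 and ME1/ME2 farthest above.

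Around these members stand carriers, regulators and neighbouring enzymes of the same routes. Of 42 such genes listed by name, 36 were tested. Their median log2 fold change was 0.15, with 27 above 0 and 9 below. By the rule with the size threshold 2 were lower (5.56%) and 4 higher (11.1%), beside 7.45% and 5.83% of all genes. At the adjusted p alone 2 were lower and 15 (41.7%) higher, beside 23.1% and 19.4%. The groups did not overlap for 3 below (8.33%) and 16 above (44.4%), beside 29.2% and 25.5% of all genes.

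LDHD, a mitochondrial D-lactate dehydrogenase, had the largest change of them, at 3.60, 3.62 and 3.16 FPKM in BrM3-shAKR1B10 and 0.901, 1.18 and 1.14 FPKM in BrM3-shNC. Every knockdown library was above every control, with a log2 fold change of 1.61 (SE 0.13, adjusted p = 0.000161). GPT2, the mitochondrial alanine transaminase, stood at 14.2, 14.4 and 14.2 FPKM against 9.22, 9.04 and 9.13, a log2 fold change of 0.64 (SE 0.03, adjusted p = 3.05e-05). LIAS, which makes the lipoyl group of DLAT and DLST, stood at 2.70, 2.71 and 2.38 FPKM against 1.86, 1.66 and 1.67 (log2 fold change 0.56, adjusted p = 0.00383). It shrank to 0.40 with a pseudocount of 1. OGDHL, a paralog of OGDH, stood at 1.66, 1.46 and 1.61 FPKM against 0.724, 0.857 and 0.881 (log2 fold change 0.87, adjusted p = 0.00458), and its log2 fold change shrank to 0.501 with a pseudocount of 1. Its mean was 1.58 FPKM in BrM3-shAKR1B10 and 0.821 in BrM3-shNC, so it passed the filter on low values only through the knockdown libraries. The kinase PDK4, with means of 0.401 and 1.07 FPKM, did not pass and is not among the 36 tested. All 4 higher genes had groups that did not overlap.

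The 2 lower genes were mitochondrial carriers. SLC25A22, a glutamate carrier, stood at 6.58, 6.57 and 6.72 FPKM in BrM3-shAKR1B10 and 9.74, 10.6 and 10.6 FPKM in BrM3-shNC, with a log2 fold change of -0.63 (SE 0.05, adjusted p = 0.000132). SLC25A13, an aspartate and glutamate carrier, stood at 11.2, 11.1 and 11.6 FPKM against 16.9, 15.5 and 16.0, a log2 fold change of -0.51 (SE 0.04, adjusted p = 0.000276). Both were apart in all 6 libraries. The SLC25A13 value fell inside the size threshold without BrM3-shAKR1B10 replicate 1 (-0.50), BrM3-shAKR1B10 replicate 2 (-0.49) or BrM3-shNC replicate 1 (-0.47), and in 3 of the other settings. The paralog SLC25A12, also an aspartate and glutamate carrier, was higher at the adjusted p alone (log2 fold change 0.22, adjusted p = 0.00579).

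**Figure D5:**
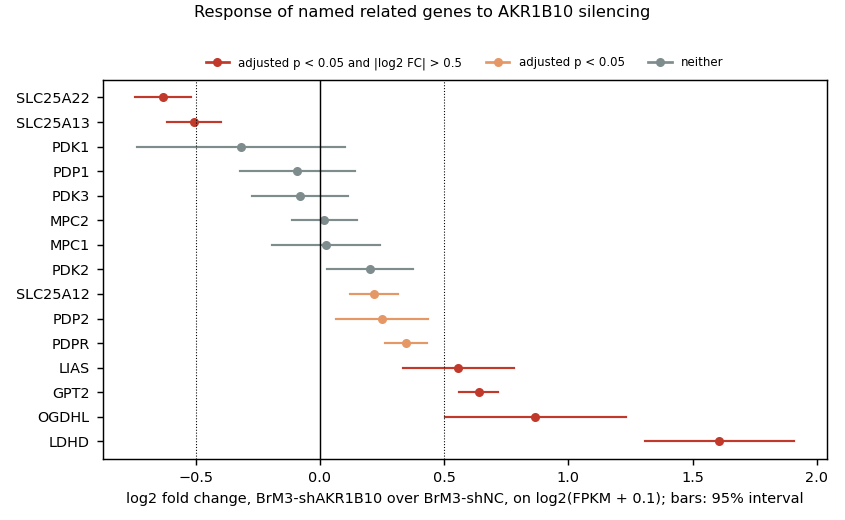
The log2 fold change (points) and 95% interval (bars) of 15 of the 36 related genes that were tested, ordered by value, with dotted lines at -0.5 and 0.5. LDHD at 1.61 lies farthest to the right of those drawn and SLC25A22 at -0.63 farthest to the left.

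The genes for the entry of pyruvate itself that passed the filter on low values were not called. The subunits of the mitochondrial pyruvate carrier, MPC1 and MPC2, had log2 fold changes of 0.03 and 0.02, with adjusted p of 0.842 and 0.812. The pyruvate dehydrogenase kinases PDK1, PDK2 and PDK3, which switch the complex off, had log2 fold changes of -0.32, 0.20 and -0.08, none past the test. PDK4, the other kinase, was below the filter, and its values, lower in all 3 knockdown libraries, are given among the other observations. Of the catalytic subunits of the opposing phosphatase, PDP2 was higher at the adjusted p alone (0.25, adjusted p = 0.0395), while PDP1 had a log2 fold change of -0.09 and was not past the test (adjusted p = 0.488). PDPR, which regulates that phosphatase, was higher at the adjusted p alone (0.35, adjusted p = 0.000482).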

How the data were processed

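RNA-seq of 6 libraries was used, 3 per group, with groups and replicate numbers taken from the labels. Per the labels and the methods, the authors aligned reads with HISAT2 2.0.5 and counted them per gene with featureCounts 1.5.0-p3. As deposited by the authors, the values are FPKM per gene and library in 1 table, with replicates not pooled. The genome build is not given in the sources used here, but identifiers and positions of all 58735 genes matched GENCODE 29. Gene length in the table equals the length of all exons together for 37 of 37 members, between 1 and 4.07 times that of the principal transcript, which lowers FPKM of genes with long rare exons. FPKM multiplied by length and by a library size recovered from the values gave whole reads for 100.0% of values (tolerance 0.02). These reads served for depth, which ran from 16964504 to 18709028. The recovered library size was above the reads on genes in every BrM3-shAKR1B10 library (17669819 against 17253067 in replicate 1). It was below them in every BrM3-shNC library (18350584 against 18709028 in replicate 1), so the deposited scaling differs between the groups. Floors from the recovered reads cover counting error only. The intervals of the log2 fold changes come instead from the limma fit and cover the spread between libraries.

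Genes whose mean over the 6 libraries reached 1 FPKM were tested on log2(FPKM + 0.1) with limma 3.58.1 (eBayes with trend) in R 4.3.3, with Benjamini-Hochberg adjustment over 13150 genes, and called at the thresholds of the study, an adjusted p under 0.05 and a log2 fold change over 0.5 in size. A fold change on this scale understates the change of low genes. The fit was tested on simulated data. Ratios within a library were compared by exact permutation in Python 3.11.15 with scipy 1.17.1, and figures were drawn with matplotlib. The members and lists were chosen with earlier results of these data known, so they are described by counts and medians. Named are all members, full values for called members, for pairs whose ratio did not overlap and for the most and least abundant member, called related genes and AKR1B10. FH and the other related genes with values were named after their values were seen, and 1 related gene is counted but not reported here by name. Alternatives were pseudocounts of 1 and 0.01, no filter, a mean FPKM of at least 5, TPM, quantile and median-of-ratios scaling, limma with voom weights on recovered reads, a block for the replicate number, and each library left out. Genes were also counted at the adjusted p alone, and how these counts move under the other settings was added after seeing the data. Libraries of a group differed by more than sampling noise (chi-square per gene of 2.45 to 5.42), so none was a copy of another. With no source for separate cultures, p-values measure the spread between these libraries, which may be technical.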

Additional observations from a re-analysis of the deposited data

How the results depend on the processing

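Of 550 comparisons of the members' fold changes with an alternative, 516 kept their direction and stayed called or not called by the rule that joins adjusted p and size, and 27 of 37 members did so under every alternative that included them. Of these 27, SDHB, SDHA, ME1 and ME3 crossed the adjusted p of 0.05 alone in some settings, with adjusted p from 0.0241 to 0.198 for SDHB, 0.0289 to 0.894 for SDHA, 0.0217 to 0.202 for ME1 and 0.0358 to 0.257 for ME3. GLO1 and IDH1 were called in every setting. ACSS1 and ACAT1 were called in all 14 alternatives that included them, as a mean FPKM of at least 5 leaves them out. Depth limits genes near 0.163 to 0.177 FPKM per 1000 bases, below every member.

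The counts of genes depended most on the thresholds. With a mean FPKM of at least 5, 532 genes were lower and 290 higher, against 980 and 766, since fewer genes were tested. A pseudocount of 1 gave 497 higher. At the adjusted p alone 3044 genes were lower and 2548 higher (1689 higher with a mean of at least 5). Of the members, 3 were lower with a pseudocount of 1 and 3 with TPM scaling, because ME2 (-0.37 and -0.48) and ACYP1 (-0.49 and -0.48) dropped under the size threshold, as did ACYP1 with quantile normalization (-0.46). A mean of at least 5 gave 2, since it leaves out 5 members. Leaving out 1 library gave 3 to 5 lower, with 3 without BrM3-shAKR1B10 replicate 3. At the adjusted p alone 15 members were lower and 3 higher. The related genes called lower were 1 with a pseudocount of 1, TPM or quantile scaling, and 1 to 2 with a library left out. The related genes called higher were 1 with a mean of at least 5, which leaves out low genes, and at the adjusted p alone 15 (9 with a mean of at least 5). The share of lower calls among all genes was 56.1%, against 49.2% with TPM scaling and 64.7% with a mean of at least 5. Of 6 called related genes 2 were lower, against 1 of 5 with TPM or quantile scaling, 3 of 7 with no filter and 2 of 3 with a mean of at least 5.

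Members near 0 changed sign. With TPM scaling the log2 fold changes were 0.0259 for IDH3B, 0.0052 for SUCLG1, 0.0083 for SDHC, 0.0299 for MDH1 and 0.0264 for GLUD1. With quantile normalization they were 0.0481 for IDH3B, 0.0194 for SUCLG1, 0.0559 for MDH1, 0.0102 for PC and 0.0371 for GLUD1. With 1 library left out the values ran from -0.035 to 0.0061 for IDH3B, -0.028 to 0.024 for OGDH, -0.071 to 0.027 for SUCLG1, -0.048 to 0.049 for MDH1, -0.072 to 0.0031 for PC, -0.075 to 0.032 for GLUD1 and -0.089 to 0.079 for HAGH, and the difference of the log2 ratio PDHA1/PDHB from -0.0196 to 0.0446. Without changing sign, 7 members that were not past the test moved by over 1.5 times, from -0.156 to -0.0017 for SUCLA2, -0.055 to -0.0039 for SDHC, 0.037 to 0.127 for PCK2, 0.048 to 0.157 for PDHX, -0.092 to -0.034 for IDH2, -0.133 to -0.063 for PDHB and -0.110 to -0.054 for MDH2. The cause was not tested.

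The replicate numbers did not pair the libraries, as the correlations of deviations between same-numbered libraries ran from -0.016 to 0.0039. A fit with a block for that number gave 967 lower and 719 higher genes, 5 members were lower and 1 higher, and 2 related genes were lower and 4 higher. At the adjusted p alone the block gave 14 members lower, without SDHB (adjusted p = 0.0739).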

Other observations

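PDK4, the kinase of the pyruvate dehydrogenase complex that is known to rise in fasting, was below the filter on low values and was named after its values were seen. It stood at 0.338, 0.441 and 0.424 FPKM in BrM3-shAKR1B10 and at 1.10, 1.15 and 0.958 FPKM in BrM3-shNC, and the groups did not overlap. In the fit without a filter its log2 fold change was -1.22 (SE 0.19, limma adjusted p = 0.00801). Of the other related genes below the filter, GLS2, GLUD2 and GPT were not past the test in that fit (adjusted p of 0.940, 0.887 and 0.532), and PCK1 and ACSS3 were listed at 0 in all 6 libraries.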
